A study of Mus musculus with 45 samples.

Results

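The 9 enzymes described here carry squalene to cholesterol: Sqle, Lss, Cyp51, Msmo1, Nsdhl, Hsd17b7, Ebp, Sc5d and Dhcr7. They were taken by gene symbol from the joined read counts of 34994 mouse genes, and 9 of 9 were measured and passed the filter on low counts in every comparison. In forelimb cultures held in 50 µM bisphenol S (BPS) for 48 h, 7 of the 9 rose against vehicle controls, by 1.30- to 1.61-fold. Of all genes tested 0.480% rose in that comparison. The enzymes were chosen with earlier results of these data known, so these counts describe them and are no independent support. At 24 h 2 of 9 rose, where 0.248% of all genes tested rose. With replicate number as a block in the fit 7 of 9 rose at 24 h, where 3.76% of all genes tested rose. That the numbers pair the libraries at 24 h was taken from the data and is not given by the labels. At 3 h 0 passed the test without a block. With 10 µM BPS 0 of 9 passed at any time, where 0% of all genes tested rose, and Ebp passed at neither dose.

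BPS is an industrial bisphenol used in place of bisphenol A. Forelimb buds of CD1 mouse embryos at gestation day 13 were pooled and kept in gassed culture bottles, with limbs of male and female embryos in the same culture. The groups were solvent vehicle (DMSO), 10 µM BPS and 50 µM BPS, each at 3, 24 and 48 h, with 5 poly-A RNA libraries a group and 45 in all. At 48 h the 50 µM BPS libraries carry strain labels that run from CD2 to CD6, and they were treated as CD1. The labels do not say whether the libraries of a group came from separate cultures, so the p-values rest on the spread among these libraries alone, part of which may be technical. A gene is said to rise, fall or pass where its adjusted p was below 0.05 over all genes tested, and levels are in CPM, the read count per M (mega) reads of a library after TMM scaling.

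Sterol synthesis past squalene begins when squalene epoxidase oxidises squalene and lanosterol synthase folds it into the first sterol. The later enzymes strip methyl groups from that ring and shift or reduce its double bonds until cholesterol is reached. Most of these genes are switched on together by the transcription factor SREBP2, which the sterol-sensing proteins SCAP and INSIG hold back when membrane sterol is plentiful. Cholesterol is needed by hedgehog signalling, and inherited loss of DHCR7, SC5D, NSDHL or EBP in humans causes malformations that include the skeleton.

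RefSeq (GRCm38.p6) gave promoter windows, reaching from 250 bases before to 50 bases after a transcript start, for 8 of the 9 enzymes in 10 windows, of which Dhcr7 has 3. Sqle is not among them. Both strands of each window were searched for 4 motifs by their letters: the sterol regulatory core TCACNCCA, which SREBP proteins bind, the CCAAT box that NF-Y binds, the E-box CANNTG and the GC box GGGCGG of SP1-type factors. A CCAAT box was found in 8 of 8 enzymes and 8 of 10 windows, where 37.4% of 32851 windows of all genes held one. A GC box stood in 8 of 8 enzymes and 9 of 10 windows, beside 35.7% of all windows, and an E-box in 6 of 8 enzymes and 8 of 10 windows, beside 72.3%. The sterol core was found in 1 enzyme, Msmo1, and in 4.36% of all windows. An E-box shared letters with a GC box in the Sc5d window and with a CCAAT box in the Nsdhl window, and no other motifs overlapped. The 250 bases before the start are printed for Msmo1, Lss and Dhcr7, whose transcripts responded with the largest changes at 48 h, and for Ebp, which did not pass, each 5′ to 3′ on the strand of its gene. Capitals mark CCAAT boxes, read on either strand as CCAAT or ATTGG, and the sterol core.
Msmo1, chr8:64733579-64733828, minus strand: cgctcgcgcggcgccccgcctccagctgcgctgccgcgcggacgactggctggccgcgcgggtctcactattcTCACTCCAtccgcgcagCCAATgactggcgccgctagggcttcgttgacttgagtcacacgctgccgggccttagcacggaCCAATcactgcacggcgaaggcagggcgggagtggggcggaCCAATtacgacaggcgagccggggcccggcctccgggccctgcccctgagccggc
Lss, chr10:76531355-76531604, plus strand: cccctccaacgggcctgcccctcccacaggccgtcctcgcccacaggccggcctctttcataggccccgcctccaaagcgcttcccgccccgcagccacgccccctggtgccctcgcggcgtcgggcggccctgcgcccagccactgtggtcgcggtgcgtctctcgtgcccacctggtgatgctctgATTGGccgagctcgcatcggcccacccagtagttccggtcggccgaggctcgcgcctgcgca
Dhcr7, chr7:143829964-143830213, plus strand: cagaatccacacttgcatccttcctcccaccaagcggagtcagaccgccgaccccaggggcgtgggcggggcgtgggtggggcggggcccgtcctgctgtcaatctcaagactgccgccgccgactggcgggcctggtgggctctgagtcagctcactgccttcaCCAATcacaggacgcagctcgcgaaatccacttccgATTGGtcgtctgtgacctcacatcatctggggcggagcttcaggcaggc
Ebp, chrX:8193513-8193762, minus strand: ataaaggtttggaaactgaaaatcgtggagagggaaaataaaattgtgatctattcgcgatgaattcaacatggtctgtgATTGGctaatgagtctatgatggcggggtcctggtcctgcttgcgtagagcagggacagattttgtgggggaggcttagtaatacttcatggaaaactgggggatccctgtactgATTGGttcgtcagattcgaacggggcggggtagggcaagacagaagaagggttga
Counted from the transcript start, the Msmo1 stretch holds the sterol core at -177 and CCAAT boxes at -160, -96 and -55. The Lss stretch has 1 CCAAT box, at -62. The Dhcr7 stretch has them at -85 and -49, and the windows of the other 2 starts of Dhcr7 hold none. Ebp has 2, at -170 and -55. A match is a description of these letters and not of binding. Only exact matches were counted, so a window without a match may still hold a variant of the motif.

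Library totals ran from 15.2 to 23.1 M reads (median 18.2 M), so Ebp, the enzyme with the fewest reads, still had 192 to 356 reads per library. All 8 limb mesenchyme and all 10 chondrocyte markers were detected, with summed levels of 1142 to 1370 CPM and 11891 to 18050 CPM in the 48 h controls. The macrophage list, markers of a cell type that the pooled limbs also contain, was lower with 50 µM BPS. At 48 h 4 of its 10 genes fell, where 0.522% of all genes tested fell, with a median log2 change of -0.53, and its summed level was 138 to 214 CPM in 50 µM BPS libraries and 209 to 285 CPM in controls. At 24 h 1 of 10 fell (median -0.32), where 0.127% of all genes tested fell, with sums of 102 to 128 CPM in 50 µM BPS libraries and 125 to 171 CPM in controls. With 10 µM BPS 0 of 10 passed at any time, and its sums overlapped the controls', at 123 to 158 CPM with 10 µM BPS at 24 h and 209 to 236 CPM with 10 µM BPS at 48 h. Of the 9 endothelial genes 1 fell at 48 h (median -0.27), with sums of 220 to 277 CPM in 50 µM BPS libraries and 249 to 346 CPM in controls. No gene of these 2 lists was at 0 in every library of a group. No limb mesenchyme, chondrocyte, osteoblast, erythroid, epidermal, skeletal muscle or neural marker passed the test at 24 or 48 h with 50 µM BPS. In bulk RNA fewer cells of a type and less RNA per cell cannot be told apart, and the part of these shifts in the results for the enzymes was not tested.

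Levels are compared between genes as CPM per kilobase (CPM divided by the gene length listed in the tables, in kilobases), averaged over the 45 libraries. Cyp51, the demethylase that acts on lanosterol, stood highest at 22.8 ± 3.75 CPM per kb (SD over 45 libraries), followed by the epoxidase Sqle at 16.8 ± 2.36, and these 2 just overlapped within 1 SD while Sqle and the next gene did not. Nsdhl at 11.2 ± 2.69, Dhcr7 at 10.9 ± 2.18, Msmo1 at 9.25 ± 2.67 and Sc5d at 8.58 ± 1.56 CPM per kb formed a middle range in which neighbours overlapped within 1 SD. Ebp at 5.95 ± 0.592, Lss at 5.19 ± 1.32 and Hsd17b7 at 4.42 ± 0.782 CPM per kb were lowest. Ebp overlapped Lss and Lss overlapped Hsd17b7 within 1 SD, but Ebp did not overlap Hsd17b7 or Sc5d. These values pool all times and doses, and the order moved with both. In the 3 h controls Msmo1 at 6.14 ± 0.589 lay beside Ebp at 6.03 ± 0.664 CPM per kb. Dhcr7 stood above Nsdhl in those controls, at 8.57 and 8.29 CPM per kb, and below it in the 24 h controls, at 11 and 13 CPM per kb. Lss was below Ebp in the controls of all 3 times and above it with 50 µM BPS at 48 h, at 7.33 and 6.05 CPM per kb. In CPM the range between single libraries was widest for Msmo1, whose highest library was 3.1 times its lowest, and narrowest for Ebp, at 1.54 times. The highest of the 45 libraries was replicate 1 of 50 µM BPS at 48 h for 6 enzymes (Sqle, Lss, Cyp51, Msmo1, Nsdhl and Dhcr7) and replicate 5 of 50 µM BPS at 24 h for Sc5d and Hsd17b7. For Ebp it was a control, replicate 1 at 48 h.

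**Figure D1:**
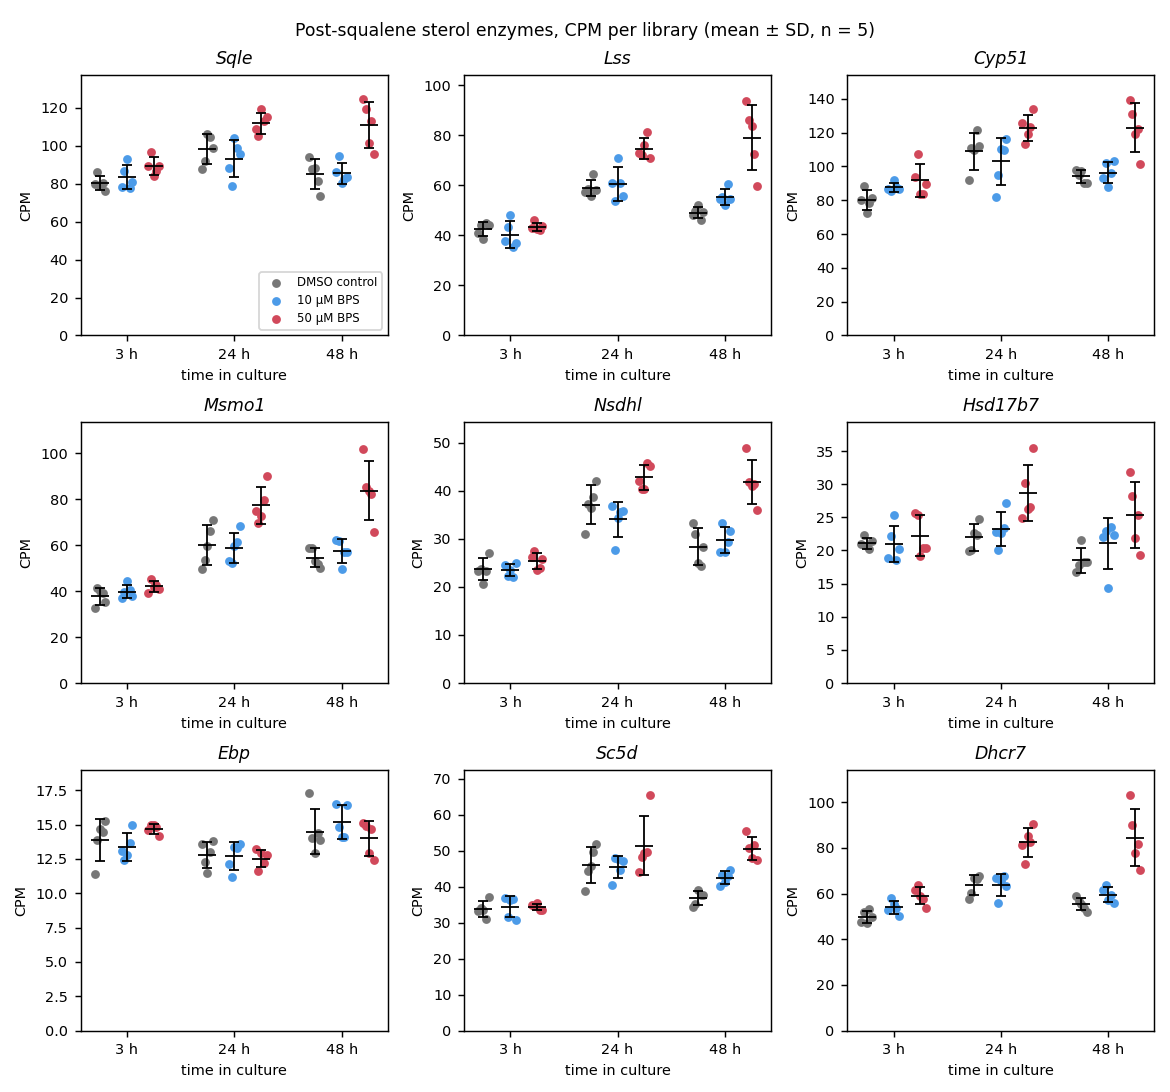
CPM of each enzyme in every library, by time in culture (x axis) and dose (grey DMSO, blue 10 µM BPS, red 50 µM BPS); points are libraries and bars are mean ± SD (n = 5). At 48 h the 50 µM BPS points of 7 enzymes lie above all 5 controls, Hsd17b7 overlaps its controls and Ebp stays between 12.4 and 17.3 CPM in the 50 µM BPS and control libraries.

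Vehicle controls were first compared across culture time. Summed over the 9 enzymes, control libraries had 383 ± 15.8 CPM at 3 h, 508 ± 40.5 CPM at 24 h and 436 ± 19.7 CPM at 48 h (SD, n = 5 each), so the level was highest at 24 h. Of the 9 enzymes 7 rose at 24 h against 3 h and 0 fell, with a median log2 change of 0.43, where 20% of all genes tested rose. Msmo1, the methylsterol oxidase that starts removal of the methyl pair at carbon C4, averaged 59.9 ± 8.73 CPM at 24 h and 37.7 ± 3.62 CPM at 3 h in controls (log2 change 0.65 ± 0.093 SE, adjusted p = 2.19e-05, edgeR quasi-likelihood test with Benjamini-Hochberg adjustment, as for every adjusted p here). Nsdhl, the dehydrogenase that follows it, averaged 37.1 ± 4.05 CPM at 24 h and 23.7 ± 2.24 CPM at 3 h (log2 change 0.63 ± 0.084, adjusted p = 3.48e-06). The other 5 that rose were Lss (0.45), Cyp51 (0.43), Sc5d (0.43), Dhcr7 (0.34) and Sqle (0.27), given as log2 changes, and in all 7 the 24 h controls lay above the 3 h controls without overlap, as in 15.4% of all genes tested. Hsd17b7, the reductase that ends C4 demethylation, and the isomerase Ebp did not pass, with log2 changes of 0.04 ± 0.080 and -0.13 ± 0.10.

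Between 24 and 48 h the movement in controls was downward. 5 of the 9 fell at 48 h against 24 h, 0 rose, the median log2 change was -0.22, and 6.55% of all genes tested fell. Nsdhl fell to 28.4 ± 3.84 CPM at 48 h, against 37.1 ± 4.05 CPM at 24 h (log2 change -0.39 ± 0.10, adjusted p = 0.0131). Sc5d, the desaturase, averaged 36.8 ± 1.95 CPM at 48 h and 46.1 ± 5.01 CPM at 24 h (log2 change -0.33 ± 0.081, adjusted p = 0.0104). Lss (-0.27), Cyp51 (-0.22) and Dhcr7 (-0.21) were the other 3 that fell, while Msmo1 at -0.14 ± 0.091 did not pass. The count was 3 when any 1 of 6 control libraries was left out (replicates 3, 4 and 5 at 24 h, and 2, 4 and 5 at 48 h). Over the whole interval 4 of 9 rose at 48 h against 3 h (Lss, Cyp51, Msmo1 and Nsdhl), 0 fell and 24.5% of all genes tested rose. Msmo1 kept the largest difference over that interval, with a log2 change of 0.52 ± 0.078 (adjusted p = 2.84e-05). Without control replicate 3 at 3 h the count of 4 was 2.

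At 48 h 50 µM BPS was compared with vehicle. Summed over the 9 enzymes, the level was 613 ± 76.0 CPM with 50 µM BPS and 436 ± 19.7 CPM in controls (SD, n = 5 each). 7 of 9 enzymes rose and 0 fell, with a median log2 change of 0.45 where the median of all genes tested was -0.0041, and 0.480% of all genes tested rose. In the 7 that rose every 50 µM BPS library stood above every control, a pattern met by 1.88% of all genes tested. Lss, lanosterol synthase, had 93.6, 85.9, 83.6, 72.7 and 59.9 CPM in replicates 1 to 5 of 50 µM BPS, against 48.2, 49.6, 52.0, 46.3 and 49.2 CPM in the controls. The controls lay within a few CPM of each other, whereas the 50 µM BPS libraries spread widely with replicate 1 highest and replicate 5 lowest. The log2 change was 0.68 ± 0.093 SE, the largest of the 9 (adjusted p = 0.00234). An antisense gene, 4930483K19Rik, overlaps the span of Lss by 11268 bases, introns included. The libraries are not stated to keep strand, so whether reads of these genes were kept apart is not known. The antisense gene had at most 0.666 CPM in any library.

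Of the 3 enzymes of C4 demethylation 2 rose. Msmo1 had 101.7, 85.4, 83.7, 82.2 and 65.5 CPM with 50 µM BPS, against 58.8, 58.9, 53.2, 52.0 and 50.2 CPM in controls (log2 change 0.61 ± 0.091, adjusted p = 0.00352). Nsdhl had 48.9, 41.8, 41.0, 41.5 and 36.0 CPM with 50 µM BPS, against 33.3, 31, 24.9, 24.4 and 28.3 CPM in controls (0.55 ± 0.096, adjusted p = 0.0107). Neither overlapped its controls, and for Nsdhl the closest libraries were replicate 5 of 50 µM BPS and replicate 1 of the controls. Hsd17b7 had 31.9, 28.2, 21.9, 25.3 and 19.3 CPM with 50 µM BPS, against 16.7, 17.8, 21.6, 18.3 and 18.2 CPM in controls. Its lowest treated library lay below the highest control, and with a log2 change of 0.44 ± 0.118 it did not pass (adjusted p = 0.0917).

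Dhcr7, the reductase that makes cholesterol in the Kandutsch-Russell order of the steps, had 103.0, 89.9, 77.7, 81.6 and 70.3 CPM with 50 µM BPS, against 58.8, 56.6, 55.5, 53.5 and 51.8 CPM in controls. The lowest treated library was well above the highest control, and the log2 change was 0.61 ± 0.084 (adjusted p = 0.00234). Sc5d, which acts just before it, had 55.6, 50.8, 47.9, 51.5 and 47.4 CPM with 50 µM BPS, against 34.5, 35.2, 39.2, 37.7 and 37.7 CPM in controls (0.45 ± 0.065, adjusted p = 0.00274). It had the smallest SE of the 9. Ebp, which shifts a double bond ahead of Sc5d, had 15.1, 14.9, 12.9, 14.7 and 12.4 CPM with 50 µM BPS, against 17.3, 14.0, 12.9, 14.4 and 13.9 CPM in controls. These ranges coincided, and the log2 change was -0.05 ± 0.099 (adjusted p = 0.863).

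Sqle and Cyp51, the steps on either side of Lss, had smaller log2 changes than Lss. Sqle had 124.9, 119.3, 101.7, 112.9 and 95.9 CPM with 50 µM BPS, against 94.2, 88.0, 88.1, 81.7 and 73.8 CPM in controls (0.38 ± 0.078, adjusted p = 0.0325), a gap of under 2 CPM between the closest libraries. Cyp51 had 139.6, 130.9, 119.3, 122.4 and 101.2 CPM with 50 µM BPS, against 97.8, 94.8, 97.3, 90.2 and 90.2 CPM in controls (0.38 ± 0.071, adjusted p = 0.0176). Cyp51 ends within the span of Akap9, over 166 shared bases, and whether reads there were kept apart by strand is not known. Akap9 had 81.1 to 136 CPM in single libraries, a level like that of Cyp51. Whether the enzymes differ from one another in the size of their response was not tested.

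**Figure D2:**
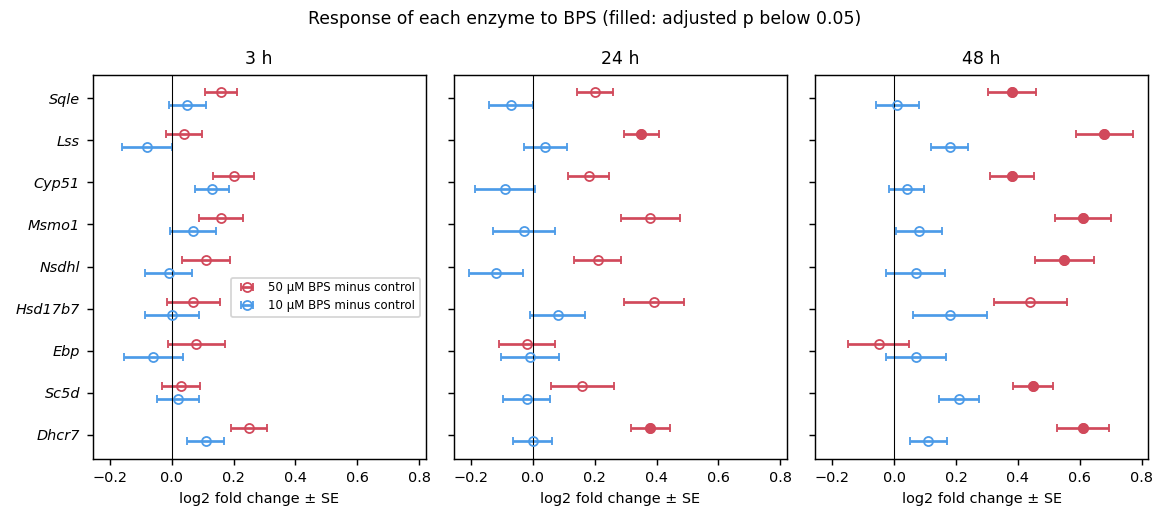
Log2 fold change ± SE of each enzyme against the controls of the same time (3 panels, 3, 24 and 48 h), for 50 µM BPS (red) and 10 µM BPS (blue); filled points have an adjusted p below 0.05. Filled points number 0 at 3 h, 2 at 24 h and 7 at 48 h for 50 µM BPS, and 0 for 10 µM BPS.

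The treated libraries at 48 h took the same top and bottom places for every enzyme. Replicate 1 of 50 µM BPS was the highest of its group in 9 of 9 enzymes and replicate 5 the lowest in 9 of 9, Ebp included. The share of all genes with these top and bottom places was not counted. Whether the pattern is particular to the enzymes was therefore not tested. The sum over the 9 enzymes was 714, 647, 590, 605 and 508 CPM in replicates 1 to 5, against 460, 446, 445, 419 and 413 CPM in the controls. Read totals did not follow this order (17.0, 22.2, 16.0, 22.1 and 17.5 M reads). The macrophage list summed to 138, 169, 152, 162 and 214 CPM in the same 5 treated libraries, so it was lowest in replicate 1 and highest in replicate 5, and its part in the spread was not tested. The count of enzymes called was 8 without replicate 5 of 50 µM BPS, when Hsd17b7 passed as well, and 5 without replicate 1. Lss, Msmo1, Nsdhl, Sc5d and Dhcr7 kept an adjusted p below 0.05 in 17 of 17 alternative fits, Cyp51 in 11 and Sqle in 10.

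**Figure D3:**
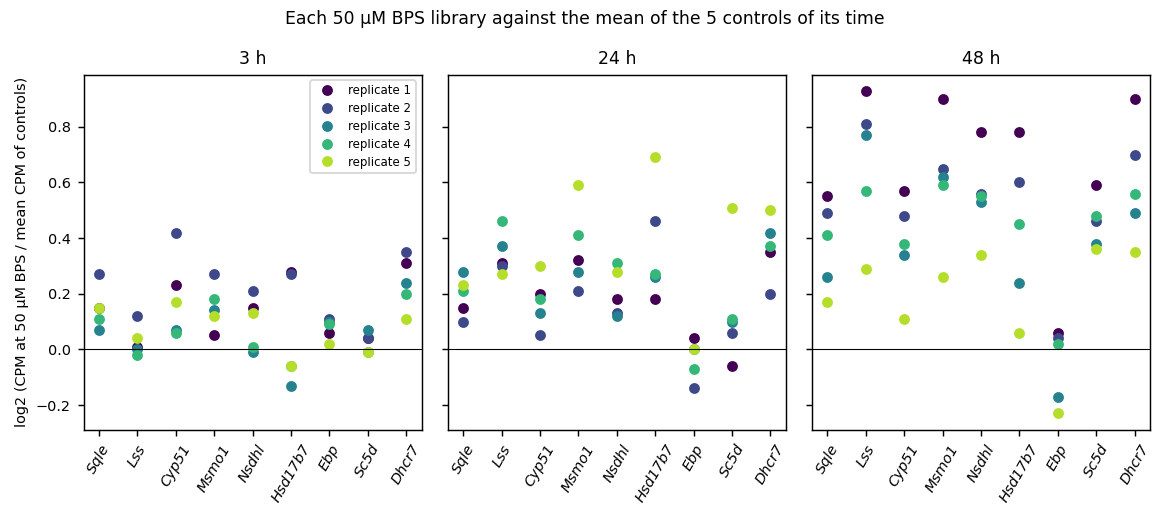
Log2 ratio of the CPM of each 50 µM BPS library to the mean CPM of the 5 controls of its time, for the 9 enzymes (x axis) at 3, 24 and 48 h; colours mark the replicate number. At 48 h replicate 1 is the top point and replicate 5 the bottom point of every enzyme, from 0.93 and 0.29 for Lss to 0.06 and -0.23 for Ebp. The share of all genes with these top and bottom places was not counted.

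50 µM BPS was then compared with vehicle at 24 h. The sum over the enzymes was 606 ± 35.6 CPM with 50 µM BPS and 508 ± 40.5 CPM in controls. 2 of 9 rose and 0 fell, the median log2 change was 0.21, and 0.248% of all genes tested rose. Lss had 73.1, 72.3, 76.2, 81.1 and 70.8 CPM with 50 µM BPS, against 57.3, 58.7, 55.9, 64.7 and 58.0 CPM in controls (log2 change 0.35 ± 0.057, adjusted p = 0.0154). Dhcr7 had 81.3, 73.1, 85.2, 82.5 and 90.5 CPM with 50 µM BPS, against 57.8, 60.4, 66.7, 66.2 and 67.7 CPM in controls (0.38 ± 0.063, adjusted p = 0.0174). The groups did not overlap in Lss, Dhcr7 and, barely, Hsd17b7, that is in 3 of 9 enzymes a pattern met by 1.40% of all genes tested. Hsd17b7 at 0.39 ± 0.097 (adjusted p = 0.0789) and Msmo1 at 0.38 ± 0.095 (adjusted p = 0.104) had differences of the same size but did not pass.

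Samples with the same replicate number deviated together at 24 h. With that number as a block 7 of 9 passed at 24 h, again all higher, where 3.76% of all genes tested rose in the blocked fit. The difference between the 48 and 24 h responses, fitted without the block, passed for 0 of 9 enzymes (every adjusted p = 1, interaction test of edgeR). In the blocked fit of 50 µM BPS against control at 24 h Msmo1 passed with 0.38 (adjusted p = 4.8e-05) and Hsd17b7 with 0.39 (adjusted p = 0.00208). Sqle passed there with 0.21 (adjusted p = 0.00312), Nsdhl with 0.22 (adjusted p = 0.0262) and Cyp51 with 0.18 (adjusted p = 0.0461). Sc5d at 0.16 (adjusted p = 0.0837) and Ebp at -0.02 (adjusted p = 0.927) did not. Without the block the count of 2 was 0 when replicate 3 or 4 of 50 µM BPS or control replicate 2 was left out, 1 without control replicate 1 and 4 without control replicate 5. In Sc5d 1 library stood out, replicate 5 of 50 µM BPS at 65.5 CPM, beside 44.2 to 49.6 CPM in the other 4 and 38.9 to 51.8 CPM in the controls.

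At 3 h with 50 µM BPS 0 of 9 passed by edgeR without a block, where 0.0299% of all genes tested rose. With replicate number as a block 3 passed, as given at the end beside the count over all genes. Whether the numbers pair libraries at 3 h is undecided. All 9 log2 changes of the fit without a block were above 0 (0.03 to 0.25). The unadjusted p was below 0.05 in 4 of them (Sqle, Cyp51, Msmo1 and Dhcr7), DESeq2 called 1 and limma-voom 0. Counts at an unadjusted p below 0.05, here and in the paragraphs that follow, stand without the share of all genes tested. They do not show whether the enzymes differ from all genes. Dhcr7 had 61.6, 63.7, 59.0, 57.4 and 53.8 CPM with 50 µM BPS, against 47.5, 51.7, 47.0, 53.2 and 49.8 CPM in controls. It was the only enzyme whose treated libraries all lay above the controls, as did 0.658% of all genes tested, and its log2 change was 0.25 ± 0.057 (adjusted p = 0.156). Sqle averaged 89.4 ± 4.71 CPM with 50 µM BPS and 80.4 ± 3.68 CPM in controls (0.16 ± 0.051, adjusted p = 0.434), with overlapping libraries. Lss, the most changed enzyme at 48 h, averaged 43.5 ± 1.61 CPM with 50 µM BPS and 42.6 ± 2.67 CPM in controls at 3 h (0.04 ± 0.059).

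Whether the response to 50 µM BPS differed between times was tested as an interaction over the 45 libraries. Between 48 and 3 h 1 of 9 enzymes passed, where 0.0597% of all genes tested had a larger rise at 48 h. That enzyme was Lss, whose log2 response was larger at 48 h by 0.65 ± 0.112 (adjusted p = 0.00752), and 7 of 9 had an unadjusted p below 0.05. For Msmo1 the difference was 0.46 ± 0.131 (adjusted p = 0.179), for Sc5d 0.43 ± 0.106 (adjusted p = 0.101) and for Cyp51 0.18 ± 0.108 (adjusted p = 0.698). Leaving out replicate number 1, 2 or 4 from all groups left 0 enzymes called, and leaving out number 5 gave 2. Between 24 and 3 h 0 passed, with 1 at an unadjusted p below 0.05, and between 48 and 24 h 0 passed, with 4. In both of these tests 0% of all genes tested had a larger rise at the later time that passed, and DESeq2 called 0 of 9 in each.

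With 10 µM BPS none of the 9 enzymes passed by edgeR at 3, 24 or 48 h, and DESeq2 and limma-voom called 0 as well. The share of all genes tested that rose was 0% at 3 h, 0% at 24 h and 0% at 48 h. The unadjusted p was below 0.05 for 1 enzyme at 3 h, 0 at 24 h and 2 at 48 h. At 48 h all 9 log2 changes were above 0, with a median of 0.08. Sc5d had 40.1, 43.3, 41.4, 43.0 and 44.7 CPM with 10 µM BPS, against 34.5, 35.2, 39.2, 37.7 and 37.7 CPM in controls (0.21 ± 0.064, unadjusted p = 0.00539 and adjusted p = 1 by edgeR). Lss had 54.5, 55.3, 52.2, 60.5 and 54.4 CPM with 10 µM BPS, against 48.2, 49.6, 52.0, 46.3 and 49.2 CPM in controls (0.18 ± 0.060, unadjusted p = 0.00988 and adjusted p = 1 by edgeR). These were the 2 enzymes whose treated libraries all lay above the controls, as did 0.251% of all genes tested. At 24 h the median log2 change of the 9 was -0.02, with a range of -0.12 to 0.08.

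Set against 10 µM BPS, 50 µM BPS gave higher levels of 7 of 9 enzymes at 48 h and lower levels of 0, where 0.436% of all genes tested rose. The median log2 difference was 0.37. Msmo1 averaged 83.7 ± 12.8 CPM with 50 µM BPS and 57.5 ± 5.09 CPM with 10 µM BPS (0.53 ± 0.095, adjusted p = 0.0166), and Dhcr7 84.5 ± 12.5 CPM with 50 µM BPS and 59.5 ± 3.27 CPM with 10 µM BPS (0.50 ± 0.079, adjusted p = 0.00389). Lss differed by 0.51 ± 0.095, Nsdhl by 0.48 ± 0.077, Sqle by 0.37 ± 0.063, Cyp51 by 0.34 ± 0.067 and Sc5d by 0.25 ± 0.057 on the log2 scale. The 50 µM BPS libraries all lay above the 10 µM BPS libraries in 5 of 9 enzymes, as in 1.59% of all genes tested. In Lss and Cyp51 replicate 5 of 50 µM BPS fell below the highest 10 µM BPS library. Hsd17b7 at 0.26 ± 0.150 and Ebp at -0.12 ± 0.088 did not pass. The count of 7 was 3 without replicate 2 or 3 of 50 µM BPS, and 4 without replicate 4 of 50 µM BPS or replicate 1 or 4 of 10 µM BPS. This comparison and that with the controls share the 50 µM BPS libraries.

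At 24 h 0 of 9 passed between 50 and 10 µM BPS by edgeR, as did 0% of all genes tested in the upward direction. An unadjusted p below 0.05, counted without the share of all genes, was found for 7. The median log2 difference was 0.31, and DESeq2 called 4 and limma-voom 0. Dhcr7 came closest, at 82.5 ± 6.33 CPM with 50 µM BPS and 63.8 ± 4.79 CPM with 10 µM BPS (0.37 ± 0.064, adjusted p = 0.055). When replicate number entered as a block, 6 of 9 passed, all higher, where 0.591% of all genes tested rose in that fit, among them Msmo1 at 0.40 (adjusted p = 5.84e-06) and Dhcr7 at 0.37 (adjusted p = 1.63e-05). At 3 h 0 of 9 passed, as did 0% of all genes tested, 1 had an unadjusted p below 0.05 and DESeq2 called 0.

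Other genes of sterol and lipid metabolism were counted in the same fits. With 50 µM BPS at 48 h 0.480% of all genes tested rose. At 48 h with 50 µM BPS 6 of 10 genes of the mevalonate pathway, which makes squalene from acetyl-CoA, rose and 0 fell (median log2 change 0.39). Hmgcs1, its synthase of hydroxymethylglutaryl-CoA, averaged 203 ± 28.0 CPM with 50 µM BPS and 134 ± 7.35 CPM in controls (0.59 ± 0.079, adjusted p = 0.00234). Idi1, the isomerase of the isoprene unit, rose by 0.79 ± 0.110 and Fdft1, which makes squalene, by 0.34 ± 0.069. Of the 5 other late sterol genes 2 rose (median 0.16), among them the sterol reductase Tm7sf2, at 30.4 ± 3.23 CPM with 50 µM BPS and 22.9 ± 2.74 CPM in controls (0.40 ± 0.093, adjusted p = 0.0499). Lbr, which has the same reductase activity as Tm7sf2, was at 0.07 ± 0.077.

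Among 12 SREBP regulators and LDL uptake genes 5 rose and 0 fell at 48 h (median 0.21), where 0.480% of all genes tested rose. Insig1, which retains SCAP, averaged 78.3 ± 9.16 CPM with 50 µM BPS and 52.3 ± 3.33 CPM in controls (0.58 ± 0.078, adjusted p = 0.00234), and Stard4, a sterol carrier, rose by 0.41 ± 0.090. In the fatty acid synthesis list 6 of 10 rose (median 0.28), led by the desaturase Scd1 at 148 ± 19.5 CPM with 50 µM BPS and 77.7 ± 5.28 CPM in controls (0.92 ± 0.081, adjusted p = 3.58e-05). None of the 7 LXR target and sterol export genes passed (median -0.07), and Apoe, a lipoprotein component, was at -0.28 ± 0.10. Of 6 hedgehog genes 1 rose, the ligand Ihh, at 64.8 ± 4.67 CPM with 50 µM BPS and 41.8 ± 9.40 CPM in controls (0.63 ± 0.123, adjusted p = 0.0295), while the target Gli1 was at 0.07 ± 0.059. Of 15 ER chaperone genes 1 rose, Dnajb9 (0.30 ± 0.069, adjusted p = 0.0487). Members of these lists were chosen with results of these data known, so the counts describe them and are no independent support.

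**Figure D4:**
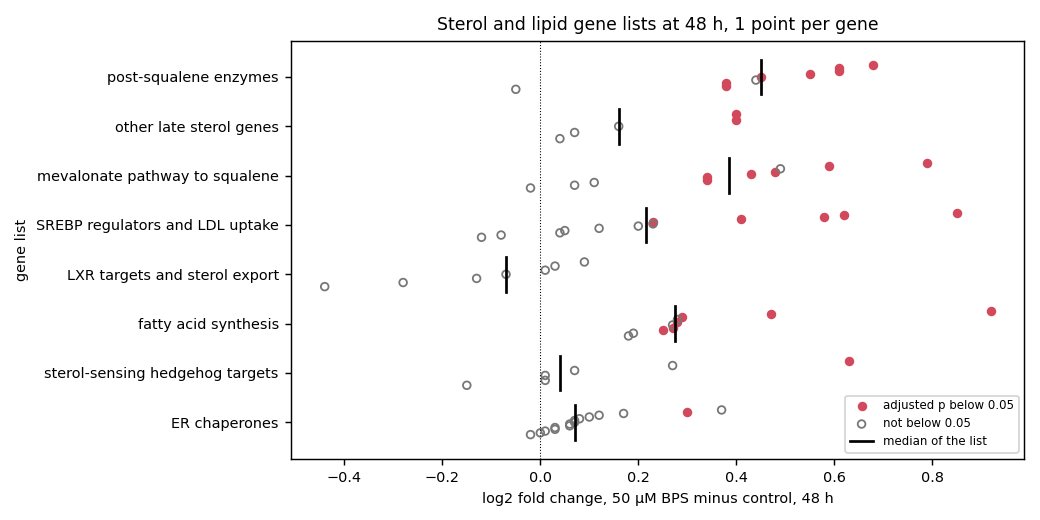
Log2 fold change of 50 µM BPS minus control at 48 h for each gene of 8 lists (1 point a gene, spread vertically only for visibility); red points have an adjusted p below 0.05 and black bars are list medians. Medians are 0.45 for the post-squalene enzymes, 0.39 for the mevalonate pathway and -0.07 for the LXR list.

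At 24 h with 50 µM BPS, without the block, 2 of 10 mevalonate genes rose, with Hmgcs1 among them, 2 of 12 SREBP regulators and LDL uptake genes, with Insig1 among them, and 3 of 10 fatty acid genes (Scd1, Scd2 and Fasn). The other late sterol, LXR, hedgehog and ER chaperone lists had 0. Of all genes tested 0.248% rose in that fit. With replicate number as a block more genes passed over the whole series as well, and 3.76% of all genes tested rose. In that fit 6 of 10 mevalonate genes, 5 of 12 SREBP regulators and LDL uptake genes and 7 of 10 fatty acid genes rose. So did 2 of 5 other late sterol genes. Of 7 LXR genes 1 rose and 1 fell, and the hedgehog and ER chaperone lists again had 0. Without the block Hmgcs1 averaged 209 ± 18 CPM with 50 µM BPS and 164 ± 16.4 CPM in controls (0.36 ± 0.071, adjusted p = 0.0405). At 3 h 0 genes of the sterol and fatty acid lists rose and 2 of 15 ER chaperones did, where 0.0299% of all genes tested rose.

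The genes whose pattern was most like that of the 9 enzymes were ranked by Pearson's r with the mean of the 9, over the 45 libraries, after each gene's mean at each time was removed from its log2 CPM. Among 11530 other genes of at least 5 CPM the 8 highest included Hmgcs1 (0.95), Scd1 (0.91), Insig1 (0.89), Idi1 (0.88) and Fdft1 (0.82). The points share library preparation and depth and include the dose response, so these values are a description. Measured the same way against the mean of the other 8 enzymes, Dhcr7 and Msmo1 reached 0.93, Sqle 0.90, Cyp51 0.88, Nsdhl 0.86, Lss 0.84, Hsd17b7 0.78 and Sc5d 0.73. Ebp stood apart at 0.07.

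In the authors' deposited tables, 8 of 9 enzymes had an adjusted p below 0.05 for 50 µM BPS against control at 48 h, the exception being Ebp, where those tables called 1.45% of all genes with an adjusted p. The authors' deposited tables gave 4 at 24 h (Lss, Msmo1, Hsd17b7 and Dhcr7), beside 0.893% of all genes, 1 at 3 h (Dhcr7), beside 0.134%, and 0 at each time for 10 µM BPS, beside 0%.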

How the data were processed

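The data are 45 poly-A RNA libraries of cultured mouse forelimbs, with groups and replicate numbers read from sample titles. Per the submitters' processing notes, the build was mm10 and the tools included STAR 2.5 and HTSeq 0.6.1, beside CASAVA 1.8 and DESeq2 (version 2); their roles and options were not given in the sources used here. Raw read counts per gene make up the deposited tables, 9 in all with 10 libraries each, which the authors did not normalise, per the file headers. The authors' own log2 fold changes and adjusted p-values, deposited in the same tables, are used only where named. Other deposited columns were not used, and 0 columns belonged to other samples. Tables were joined by gene identifier; 1319925 control counts occurred more than once and 0 differed.

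Each comparison was fitted on its own 10 libraries by edgeR 4.0.16 under R 4.3.3 (quasi-likelihood test, two-sided, TMM scaling, filterByExpr, robust dispersion), over all genes tested, with Benjamini-Hochberg adjustment and a call at an adjusted p below 0.05. Differences of the response between times were interactions in a fit of all 45 libraries. CPM used TMM factors over 45 libraries, and log2 CPM a prior count of 2. The script was tested on simulated data. Libraries of a group always differed by more than sampling noise (chi-square per degree of freedom at least 4.42 over 90 pairs). SDs and SEs cover the spread between libraries, and no interval from counting alone is given. Each SE is the absolute log2 change divided by the square root of the F statistic of its quasi-likelihood test.

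Same-numbered libraries were checked for shared deviations from their group means over 12068 genes. Every correlation was above 0.1 only in the 3 comparisons at 24 h (0.12 to 0.53), so the numbers are taken to pair the libraries there, from the data and not from the labels. At 3 h 50 µM BPS and control libraries had correlations of 0.08 to 0.47, and pairing there is undecided.

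All 9 enzymes are named; of each other list up to 4 genes per comparison by smallest p, and the 8 genes most like the enzymes. Some genes that this rule names are not reported here, but all counts include them. Genes that overlap an enzyme were named after their values were seen. The enzymes and lists were chosen with earlier results of these data known. Alternatives were DESeq2 1.42.0, limma-voom (limma 3.58.1), other scaling factors, no filter, a fit of all libraries, a replicate block and leaving out each library.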

Additional observations from a re-analysis of the deposited data

Results flagged for a closer look

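In 81 groups of 5 libraries, 3 held a library far from the other 4, and chance flags about 1 in 20 such groups. Nsdhl was lowest in replicate 2 of 10 µM BPS at 24 h, at 27.7 CPM beside 34.3 to 36.8 CPM in the other 4. Hsd17b7 was lowest in replicate 3 of 10 µM BPS at 48 h, at 14.3 CPM beside 22.0 to 23.6 CPM. Sc5d was highest in replicate 5 of 50 µM BPS at 24 h, at 65.5 CPM beside 44.2 to 49.6 CPM. The log2 response of Lss to 50 µM BPS differed between 48 and 3 h, by 0.65 ± 0.112 (SE) in the interaction test of edgeR (adjusted p = 0.00752).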

How the results depend on the processing

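Single values of the 9 enzymes kept their direction and side of the threshold in 2000 of 2160 cases. With no filter on low counts the counts were 5 (50 against 10 µM BPS, 24 h), 4 (50 µM BPS against control, 24 h), 1 (3 h) and 3 (controls, 48 against 24 h). DESeq2 gave 4, 4 and 1 for the first 3 of these and 2 for the interaction between 48 and 3 h, which a fit of its own 20 libraries also put at 2. One fit of all 45 libraries gave 1 for 50 against 10 µM BPS at 24 h, and upper quartile factors 3 for controls at 48 against 24 h. These counts, and those from DESeq2 and limma-voom given above, stand without the share of all genes called in the same fits. They do not show whether calls changed for the enzymes more than for all genes. The cause was not tested.

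With the replicate block the pairing at 24 h gave 7 enzymes for 50 µM BPS against control, 6 for 50 against 10 µM BPS and 0 for 10 µM BPS. Elsewhere at least 1 correlation of each comparison was 0.1 or lower (range -0.24 to 0.50), and pairing was not assumed. At 3 h, however, 50 µM BPS and control libraries had correlations of 0.08 to 0.47, near the 0.12 to 0.49 at 24 h. Whether the numbers pair libraries at 3 h too is undecided. For 50 µM BPS against control the block gave 3 at 3 h, where 134 of 16722 genes tested rose in that fit. At 48 h it gave 7, where 42 of 16663 rose.

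Leaving out 1 library gave counts of 0 to 2 for 50 against 10 µM BPS at 24 h and 3 to 7 at 48 h. For 50 µM BPS against control they were 0 to 4 at 24 h and 5 to 8 at 48 h, for controls 3 to 6 (48 against 24 h) and 2 to 5 (48 against 3 h), and for the interaction between 48 and 3 h 0 to 2. Over all alternatives a direction turned in 31 of 2160 single values, in 0 of them for an enzyme that had been called. For the enzymes and comparisons concerned, the log2 ranges over the fits that left out 1 library were as follows. For Ebp they were -0.05 to 0.03 (10 µM BPS, 24 h), -0.06 to 0.01 (50 against 10 µM BPS, 24 h), -0.10 to 0.02 (50 µM BPS, 48 h), -0.02 to 0.09 (controls, 48 against 3 h) and -0.07 to 0.02 (interaction, 48 against 24 h). For Hsd17b7 they were -0.01 to 0.08 (controls, 24 against 3 h) and -0.08 to 0.17 (interaction, 48 against 24 h). For 10 µM BPS they were -0.03 to 0.08 for Lss, -0.09 to 0.04 for Msmo1 and -0.07 to 0.03 for Sc5d at 24 h, -0.05 to 0.04 for Nsdhl at 3 h and -0.05 to 0.05 for Sqle at 48 h. Sc5d ranged from -0.03 to 0.03 (50 against 10 µM BPS, 3 h) and Cyp51 from -0.08 to 0.04 (interaction, 24 against 3 h).

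Depth was at least 192 reads per enzyme and library.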
